A study of Picea abies with 24 samples.

Results

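The experiment compared RNA of A78:3 with RNA of G88:5, lines of Norway spruce (Picea abies) kept as embryogenic cultures. It holds 4 of the 24 two-colour cDNA arrays of the series, those whose titles pair these lines. Per the labels, A78:3 carries the asCCR construct and G88:5 is a transformed control line. The title of the series states that a gene encoding CCR was down-regulated, and the sources used here do not name the construct of G88:5. Both lines were sampled on day 14 after subculture, and each gave 2 biological replicates taken from 3 Petri dishes. In each replicate, 1 array carried A78:3 in Cy5 and G88:5 in Cy3, and the other carried the same extracts with the dyes exchanged. Each group is thus 1 line, so an effect of the construct and a difference between these lines for any other reason cannot be told apart. The labels call the replicates biological without saying whether the cultures were kept separately, and the only biological spread behind the p-values of this pairing is that between 2 replicates. With 1 degree of freedom per feature, limma took most of each variance from the other features, with 7.65 of 8.65 degrees of freedom from that prior.

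CCR, cinnamoyl-CoA reductase, reduces hydroxycinnamoyl-CoA esters to aldehydes and so opens the branch of phenylpropanoid metabolism that makes monolignols, the building units of lignin. Lignin stiffens the secondary walls of conifer tracheids. Embryogenic cultures are masses of early somatic embryos that proliferate before embryos mature. The files used here do not pair the arrayed features with genes or sequences. The level of CCR, which would check the labels, and markers of the tissue were therefore not analysed here, and a feature is written as F with the numbers of its 2 spots.

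The arrays carried 5376 spots, or 2688 features in duplicate. Median intensities before normalization ran from 2422 to 6335 for the Cy5 channel and from 2397 to 4616 for the Cy3 channel, with median backgrounds of 13.3 or less. The number of arrays limits the precision. On the array of replicate 2 with A78:3 in Cy3, Cy5 was 2.64 times as bright as Cy3 by the medians, against 0.792 to 1.34 on the other 3 arrays. Log2 ratios of the duplicate spots had a Pearson r across features, which are not independent replicates, of 0.626 and 0.376 on the arrays of replicate 1 with A78:3 in Cy5 and in Cy3. The values for replicate 2 were 0.822 and 0.718. Replicate 1 with A78:3 in Cy3 thus had the lowest agreement of duplicate spots. It also carried 64 spots marked as ignored, against 0 to 7 on the others, and its file header gives an earlier date than those of the other 3. Saturated spots touched 56 features, of which 4 were among those called below.

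Of 2688 features, 111 were higher and 179 were lower in A78:3 than in G88:5 by limma at an adjusted p under 0.05. The test set the mean of the 2 replicates, each the mean of its dye-exchanged arrays, against 0. The share called was 4.13% higher and 6.66% lower. Most differences were small. The called higher features had a median log2 ratio of 0.36 with a maximum of 0.73, and none reached a 2-fold change. The called lower features had a median of -0.39 and reached -1.99, and 6 of them were below a log2 ratio of -1. Over all features the median was 0.01, and the 1st and 99th percentiles were -0.66 and 0.45. The lower tail of the mean was thus the longer, while the balance on single arrays differed with the dye order. With A78:3 in Cy5, 119 features were above 0.5 and 174 below -0.5 in replicate 1, and 130 and 240 in replicate 2. With A78:3 in Cy3 the balance was the opposite, with 53 above and 35 below in replicate 1, and 78 and 20 in replicate 2. The 95% interval reached a median of 0.16 to either side. It stayed within a 2-fold change in either direction in 2677 features (99.6%).

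The size of the difference recurred in both replicates for a small set. A log2 ratio above 0.5 in both replicates was found in 5 features and one below -0.5 in both in 34, and 0 features passed 0.5 in opposite directions. All 39 were among the called features, but the call tests the mean of the same replicate values, so this is no independent check. This balance also turned with the dye, to 18 above and 11 below on the arrays with A78:3 in Cy3 alone, against 19 and 82 on those with A78:3 in Cy5. Without the array of replicate 2 with A78:3 in Cy5 it was 18 above and 12 below. The balance did not turn when any other single array was left out. It was 7 above and 24 below without replicate 1 with A78:3 in Cy5. Without the arrays of replicates 1 and 2 with A78:3 in Cy3 it was 5 and 43, and 8 and 48. In a further 99 features the ratio passed 0.5 in size in 1 replicate only. On each of the 4 arrays singly, 2 features were above 0.5 and 11 were below -0.5. Below a log2 ratio of -1, 4 features passed in both replicates and 2 on all 4 arrays, while 0 were above 1 in both replicates.

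**Figure D1:**
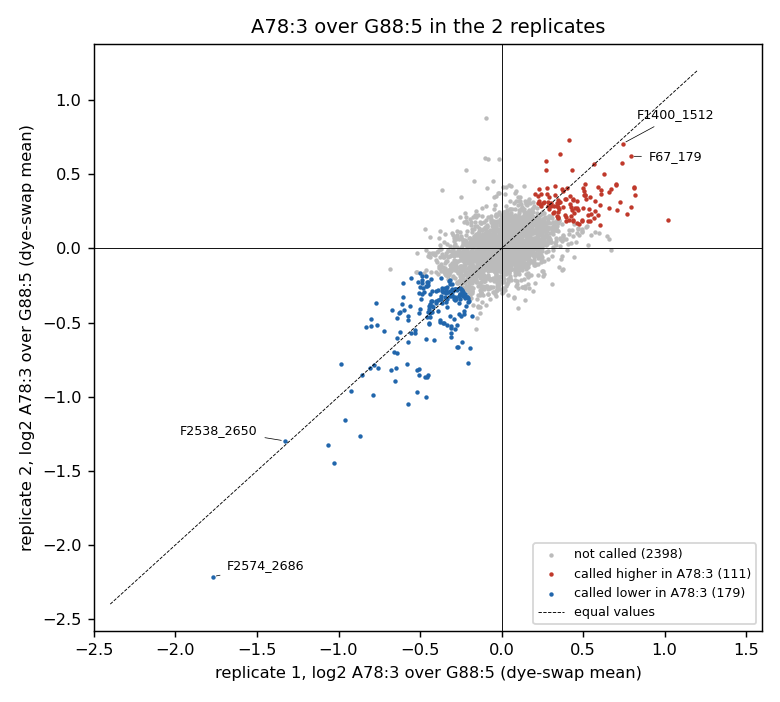
Mean log2 ratio of A78:3 over G88:5 in replicate 1 (horizontal axis) and replicate 2 (vertical axis), 1 point per feature, with called features in colour and the 4 named features labelled. The 179 features called lower extend to -1.99 on the mean of both axes, while the 111 called higher end at 0.73.

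The 4 features named below are the 2 largest called in each direction among those with 1 sign on all 4 arrays. F2574_2686 had the largest difference in size. Its log2 ratio of A78:3 over G88:5 was -2.22 with A78:3 in Cy5 and -1.32 with A78:3 in Cy3 in replicate 1, and -3.12 and -1.31 in replicate 2. It was below 0 on all 4 arrays, and lower on both arrays with A78:3 in Cy5. The mean was -1.99 ± 0.31 (SD, n = 2 replicates), with a moderated SE from limma of 0.10, here and below not the SD divided by the root of n. It was 3.98-fold lower in A78:3, with a limma adjusted p of 3.29e-05. Before normalization its spots had a mean intensity of 8255 for A78:3 and 23228.5 for G88:5 on the first of these arrays and 6208 and 18694 on the second. In replicate 2 the intensities were 5025 and 45572 with A78:3 in Cy5, and 2838 and 23485.5 with A78:3 in Cy3. The G88:5 channel was thus the brighter on every array. The feature also had a dye effect, here the difference between the orientations divided by 2, of -0.68 on the log2 scale (limma adjusted p = 1.06e-06).

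F2538_2650, printed in the same block, was the next largest. Its log2 ratio was -1.61 with A78:3 in Cy5 and -1.05 with A78:3 in Cy3 in replicate 1, and -1.50 and -1.09 in replicate 2. The replicate means lay close together, at -1.33 and -1.30, whereas the arrays differed by dye, with both Cy5 arrays again the lower. The mean was -1.31 ± 0.02 (SD, n = 2 replicates; moderated SE 0.07), or 2.49-fold lower, with a limma adjusted p of 3.29e-05. Its raw intensities were 5452 for A78:3 and 11035 for G88:5, then 3394 and 8057, in replicate 1, and 5864 and 20891, then 2526 and 16349, in replicate 2, each with the Cy5 array of A78:3 first. The duplicate spots differed most in replicate 2 with A78:3 in Cy5, at -1.03 and -1.97.

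In the other direction, F1400_1512 had log2 ratios of 0.57 and 0.91 in replicate 1 and 0.81 and 0.60 in replicate 2, in the same order of dyes. All 4 arrays were above 0 and neither dye order was the higher in both replicates. The mean was 0.73 ± 0.03 (SD, n = 2 replicates; moderated SE 0.07), or 1.65-fold higher in A78:3, with a limma adjusted p of 0.000659. The feature was dimmer than those above, at percentile 33.2 of mean log2 intensity over all features. On the array of replicate 1 with A78:3 in Cy5 its spots read -0.02 and 1.16, so that 1 of the 2 showed no difference. In replicate 2 with A78:3 in Cy3, its raw intensities were 1810 for A78:3 and 2001 for G88:5, so that the ratio there was below 0 before normalization and above 0 after it.

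F67_179 had log2 ratios of 1.07 and 0.52 in replicate 1 and 0.66 and 0.58 in replicate 2. The array of replicate 1 with A78:3 in Cy5 was the highest, and the other 3 lay between 0.52 and 0.66. The mean was 0.71 ± 0.12 (SD, n = 2 replicates; moderated SE 0.08), or 1.63-fold higher, with a limma adjusted p of 0.00104. One of its spots in replicate 1 with A78:3 in Cy3 was marked as ignored. Raw intensities were 10810.5 for A78:3 and 3496 for G88:5, then 5785 and 3076, in replicate 1, and 11179 and 6290, then 4687 and 11172, in replicate 2. On the last of these arrays the raw order was opposite to the normalized one.

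**Figure D2:**
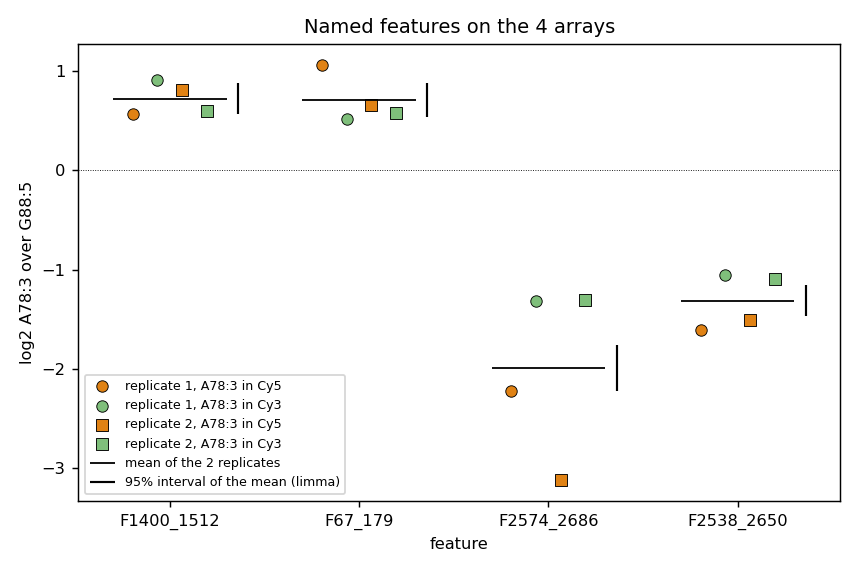
Log2 ratio of A78:3 over G88:5 for the 4 named features (horizontal axis) on each array, with circles for replicate 1, squares for replicate 2, and colour for the dye of A78:3; horizontal bars are means of the 2 replicates and vertical bars their 95% intervals. All 16 points lie on the side of the call, as the choice of these features required, and F2574_2686 has the widest spread, from -3.12 to -1.31.

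Agreement among the 4 arrays was higher for a shared dye order than for shared extracts. Arrays of different replicates with the same dye order had r across features of 0.635 with A78:3 in Cy5 and 0.456 with A78:3 in Cy3. Arrays of the same extracts with the dyes exchanged had r of 0.425 in replicate 1 and -0.111 in replicate 2, where 40.1% of features had the same sign on both. In replicate 2 the exchange of dyes thus turned the sign of most features. Arrays that shared neither replicate nor dye order had r of 0.134 and 0.238. Once the dye-exchanged arrays were averaged, the replicates had an r of 0.672 and a Spearman rho of 0.577 over 2688 features. These r values are descriptions, and the arrays share extracts and the loess normalization.

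The 4 arrays can be split into 4 contrasts of equal weight. The line ratio had an SD over features of 0.20 on the log2 scale and took 46.5% of the sum of squares. The dye effect had an SD of 0.16 and took 32.3%. The difference between replicates had an SD of 0.09 and took 9.24%, and the dye effect that differed between replicates had an SD of 0.10 and took 11.9%. The line and dye contrasts were thus the widest, and the dye contrast was not far below the line. By limma, 209 features, or 7.78%, had a dye effect at an adjusted p under 0.05, 78 above and 131 below 0. When the 4 arrays were taken as independent, 0 features had one, with 696 at an unadjusted p under 0.05.

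**Figure D3:**
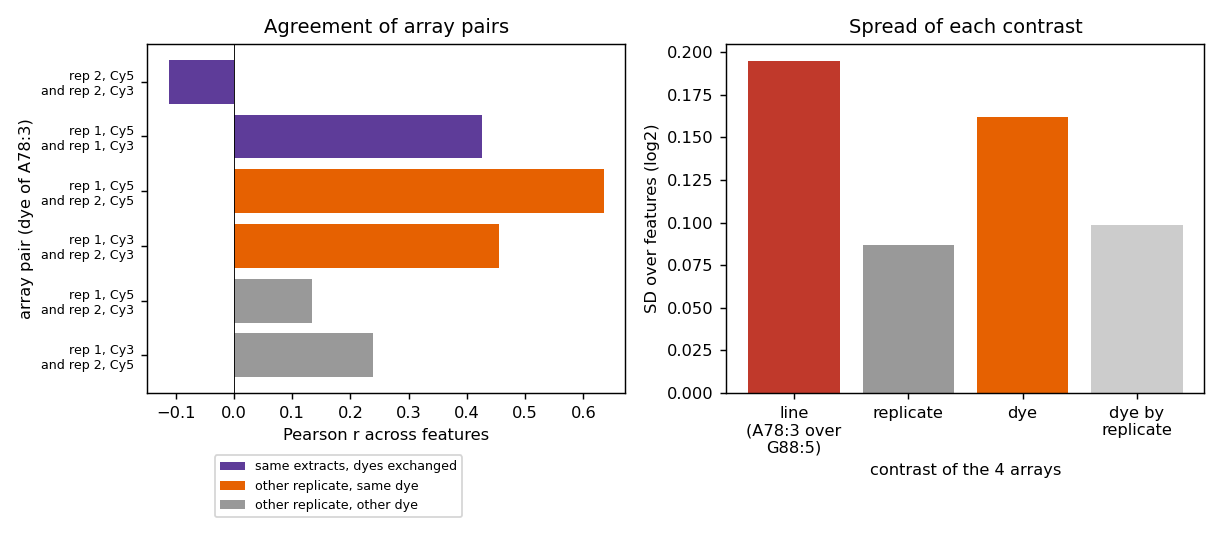
Left, Pearson r across 2688 features for each pair of the 4 arrays, coloured by what the pair shares. Right, SD over features of the 4 contrasts in log2 units; the line contrast is at 0.20, dye at 0.16, and both contrasts between replicates at 0.09 and 0.10.

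The dye effect also moved with the line ratio across features. Their r was 0.416 in replicate 1 and 0.411 in replicate 2. Within a replicate, an r above 0 follows from wider ratios on the array with A78:3 in Cy5. The SD over features was 0.32 with A78:3 in Cy5 and 0.21 with A78:3 in Cy3 in replicate 1, and 0.36 and 0.23 in replicate 2. The r was 0.287 and 0.345 when line ratio and dye effect were taken from different replicates, so that they shared no array. Among the 179 features called lower, 6 had a dye effect above 0, with a median of -0.22, and among the 111 called higher 63 had one above 0, with a median of 0.03. Over all features 47.7% were above 0. A called dye effect was found in 59 of the 290 called features, 12 of those higher and 47 of those lower, against 7.78% of all features. In 20 of the 290 the dye effect was larger in size than the line ratio. An additive dye effect cancels in the mean of both orientations, and whether one of unequal size on the arrays entered the line ratio was not tested. Arrays of pairings without an extract of either line gave a dye pattern that had an r of 0.514 with the dye effect here and 0.240 with the line ratio. After that pattern was removed by regression, a step added with the data in view, 319 features were called, 252 of them among the 290.

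A sign that held on all 4 arrays, and so under both dye orders, was found in 259 features above 0, or 9.64%, and in 346 below 0, or 12.9%. Among the called features, 86 of 111 higher and 141 of 179 lower had it. These 227 are 78.3% of the called features, against 15.8% of those not called. Since the sign on an array is part of the value tested, this describes the calls and is no independent check. The 86 had a median log2 ratio of 0.36 and the 141 a median of -0.42, and 13 and 47 of them passed 0.5 in size.

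**Figure D4:**
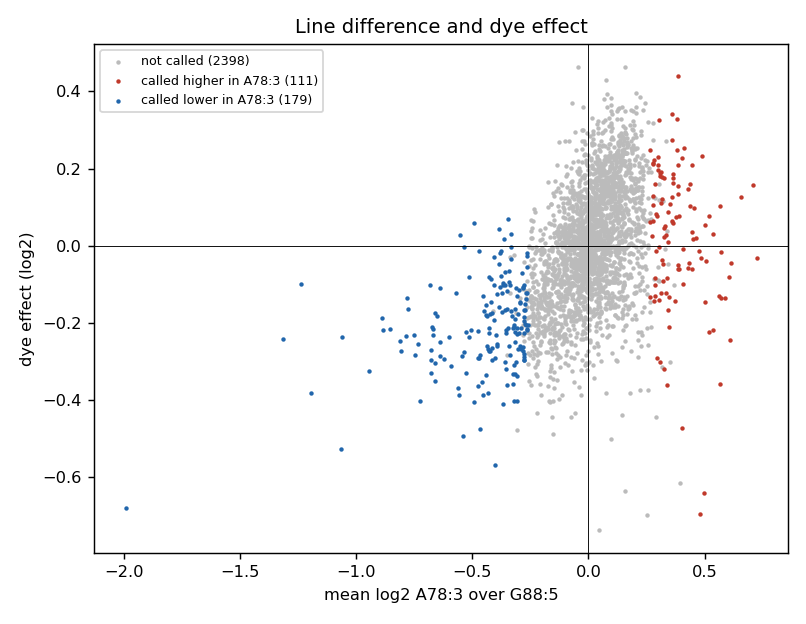
Mean log2 ratio of A78:3 over G88:5 (horizontal axis) against the dye effect (vertical axis, log2, the difference between the arrays with A78:3 in Cy5 and in Cy3 divided by 2), 1 point per feature. Nearly all of the 179 features called lower lie below 0 on the vertical axis, while 63 of the 111 called higher lie above it.

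The number of calls changed with single arrays and with the error model. Without the array of replicate 1 with A78:3 in Cy5, 28 features were called, and without the arrays of replicate 2 with A78:3 in Cy5 and in Cy3 the numbers were 52 and 1, against 264 without the remaining array. Leaving out replicate 2 with A78:3 in Cy3, which left 1 call, moved the limma adjusted p to 0.0738 for F1400_1512, 0.0766 for F67_179 and 0.0540 for F2574_2686, while F2538_2650 stayed called. With limma's prior variance allowed to follow brightness and robust estimation, 102 features were called, all lower in A78:3, and both named higher features lost their call. With the spread shared with 2 further pairings, 32 features were called higher and 72 lower, all among the 290. Arrays with A78:3 in Cy3 alone gave 5 higher and 5 lower, and those with A78:3 in Cy5 alone gave 46 and 152.

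Calls were not spread evenly over brightness. The features were split by brightness into 4 groups of 672. In the dimmest group, 0.893% were called higher and 1.34% lower, and the replicates had an r of 0.370. In the third group, at mean log2 intensities of 11.8 to 12.9, the shares were 6.85% and 11.0% and the r was 0.751. In the brightest group they were 3.13% and 5.36%, with an r of 0.660. Of the 34 features below -0.5 in both replicates, 22 were in the third group and 0 in the dimmest. The median ratio stayed between -0.001 and 0.03 in every group. The SD of the line ratio was 0.11 in the dimmest group and 0.25 in the third, whereas that of the dye effect went through the groups from 0.11 to 0.20. Dim features thus had both the fewest calls and the narrowest range of ratios.

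**Figure D5:**
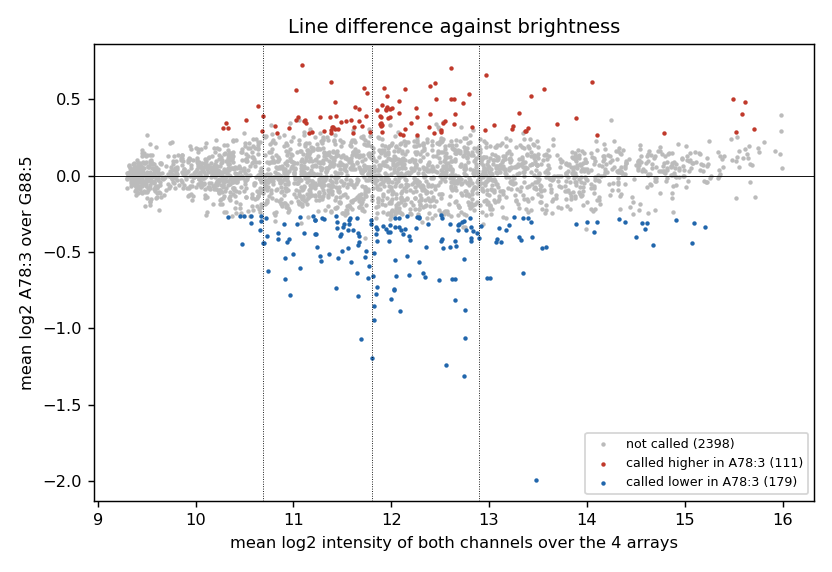
Mean log2 ratio of A78:3 over G88:5 (vertical axis) against the mean log2 intensity of both channels (horizontal axis), 1 point per feature, with dotted lines between the 4 brightness groups. Few called features lie left of the first line, and the lowest ratios lie at middle brightness.

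Called features came from all over the slide. The spots were printed in 24 pairs of blocks, and a pair of blocks held 1 to 10 features called higher, with a median of 4.5, and 3 to 12 called lower, with a median of 8. The block medians of the line ratio lay between -0.01 and 0.04. The pair that holds F2574_2686 and F2538_2650 had 5 called higher and 10 called lower, within these ranges.

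The pairings A78:4 over 95:88:22 and A78:5 over G88:9 share no extract with A78:3 over G88:5 and were measured in the same way. The line titled 95:88:22 is untransformed, and its name is spelled differently in the description of the series, and A78:4, A78:5 and G88:9 are further asCCR and transformed control lines. Tested alone like A78:3 over G88:5, each gave 0 called features by limma, with 356 and 264 at an unadjusted p under 0.05, against 734 here. The replicates had an r of 0.404 and 0.278, against 0.672, and the SD of the mean ratio was 0.10 and 0.20, against 0.20. With 1 spread for the 3 pairings, 0 and 21 features were called, against 104 here. In that limma fit 60 and 652 features had an unadjusted p under 0.05, against 547 here, so A78:5 over G88:9 had the most. A sign that held on all 4 arrays was found in 16.9% and 21.8% of features, against 22.5% here. The SD over features in A78:5 over G88:9 was thus close to that of A78:3 over G88:5, with a larger spread between its replicates, 0.15 against 0.09 as an SD of the difference divided by 2.

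The difference itself was tested as A78:3 over G88:5 minus the mean of these pairings. The fit assumed 1 spread per feature across the pairings. The SD over features of the replicate difference divided by 2 was 0.09 here, 0.06 in A78:4 over 95:88:22 and 0.15 in A78:5 over G88:9. By limma 40 features, or 1.49%, differed, 14 higher and 26 lower, and 39 of them were among the 290. F2574_2686 read -0.30 and -0.24 in replicates 1 and 2 of A78:4 over 95:88:22, and 0.89 and 0.04 in A78:5 over G88:9. F2538_2650 read -0.34 and -0.19 in the former and 0.59 and 0.10 in the latter, so that the mean subtracted averaged opposite signs for both. By limma the difference was -2.09 (moderated SE 0.23, adjusted p = 0.0273) for F2574_2686 and -1.36 (moderated SE 0.14, adjusted p = 0.0266) for F2538_2650. F1400_1512 read -0.07 and -0.17, then -0.11 and 0.19, and F67_179 read 0.23 and 0.06, then -0.09 and -0.16, in the same order. It was 0.77 for F1400_1512 and 0.70 for F67_179, both with a limma adjusted p of 0.0329. Without a replicate of A78:3 over G88:5 the count was 0, with 176 and 322 at an unadjusted p under 0.05. The lone replicate then had no spread of its own and was assumed to vary like the other pairings, so these zeros say little about stability. The same holds for the arm cut to 1 replicate in what follows. Without a replicate of A78:4 over 95:88:22 the count was 0, with 252 and 226 at an unadjusted p under 0.05. It was 245 and 178 without replicates 1 and 2 of A78:5 over G88:9. Against A78:4 over 95:88:22 alone it was 0, with 256 at an unadjusted p under 0.05.

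Further arrays set the same extracts against other lines. They share extracts with the arrays described above, so their values are given only side by side, and for A78:4 over G88:5 of replicate 1 only the array whose values matched its scanner file was used. F2574_2686 read -0.35 and -0.88 in A78:3 over G88:9 in replicates 1 and 2, and -0.20 and -2.15 in A78:4 over G88:5. F2538_2650 read 0.04 and -0.42 in the former and -0.32 and -1.56 in the latter. In A78:3, both lower features thus had lower ratios against G88:5 than against G88:9, where F2538_2650 was above 0 in replicate 1. Both were below -1 in replicate 2 of A78:4 over G88:5. F67_179 read 0.58 and 0.33 in A78:3 over G88:9, and -0.01 and -0.09 in A78:4 over G88:5. F1400_1512 read 0.75 and 0.60 in the former, and 0.06 and 0.73 in the latter. Both higher features were thus above 0 in A78:3 against either control line.

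The called features with 1 sign on all 4 arrays were set beside the same pairings, in which 46.4% to 53.0% of all features were above 0 and all features had medians between -0.01 and 0.01. The 86 higher features had a median log2 ratio of 0.42 and 0.31 in replicates 1 and 2 of A78:3 over G88:5. In A78:3 over G88:9 the medians were 0.21 and 0.23, with 75 and 76 of the 86 above 0. In A78:4 over G88:5 they were 0.01 and -0.14, with 47 and 28 above 0. In A78:4 over 95:88:22, which shares no extract, they were 0.09 and 0.05, with 69 above 0 in each replicate. In A78:5 over G88:9 they were 0.00 and -0.15, with 44 and 21 above 0. Most of the 86 were thus above 0 in A78:4 over 95:88:22 as well as in A78:3 over G88:9, with smaller ratios.

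The 141 lower features had medians of -0.44 and -0.41 in A78:3 over G88:5. In A78:3 over G88:9 these were -0.06 in replicate 1, with 50 of the 141 above 0, and -0.42 in replicate 2, with 7 above 0. In A78:4 over G88:5 they were -0.06 and -0.02, with 45 and 63 above 0. Medians of -0.07 and -0.04 were found in A78:4 over 95:88:22, with 34 and 44 above 0, and of -0.04 and -0.01 in A78:5 over G88:9, with 64 and 67 above 0. Replicate 2 of A78:3 over G88:9 was thus alone among these values in a median near that of A78:3 over G88:5.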

How the data were processed

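The deposited scanner files hold spot intensity values from QuantArray in Cy5 and Cy3 without background subtraction, per the file headers. The authors deposited log2 ratios that, per the labels, LCB Data Warehouse 1.2.10 had normalized slide by slide with print-tip loess. For the 4 arrays, values recomputed in that way as log2 Cy5 over Cy3 lay within 0.000280 of the deposited ones, and scale and direction were read from this, and the column medians were 0.00722 to 0.0178. Signs were turned to A78:3 over G88:5. Spots at the same place in adjacent print blocks were averaged (their log2 intensities had an r of 0.962), then the dye-exchanged arrays of each replicate, which are 1 replicate. All 2688 features were fitted with limma 3.58.1 under R 4.3.3 (lmFit, eBayes, Benjamini-Hochberg, called under 0.05), with no filter. The ratio within an array pairs extracts of the same replicate number, so the design holds the replicate block. The named features are the 2 largest called in each direction with 1 sign on all 4 arrays. On simulated data for A78:3 over G88:5 with 2688 features and independent noise, the fit called 95.5% of features shifted by 0.5 and 100% of those shifted by 1 or 2 and 10 of 2488 unchanged ones. The simulated variances were drawn from limma's fitted prior, and the simulated dye effect and array noise cancelled exactly in each replicate. The simulation thus says little about error rates on the real arrays. The members and tests were chosen with earlier results of these data known. Gene lists were not run, since no gene names were at hand. Alternatives covered normalization, scaling, spots, dyes, the error term, the block, and leaving out arrays and replicates.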

Additional observations from a re-analysis of the deposited data

Results flagged for a closer look

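Of 9 sets of 4 array values examined for 1 outlying array, 1 had one, where chance gives about 1 in 20. The array of replicate 1 with A78:3 in Cy3 carried 64 spots marked as ignored, against 0 to 7 on the other 3, and with ignored spots left out 248 features were called, all among the 290.

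All 4 named features differed between A78:3 over G88:5 and the pairings with no shared extract by limma at an adjusted p under 0.05, by -2.09 in F2574_2686, -1.36 in F2538_2650, 0.77 in F1400_1512 and 0.70 in F67_179 on the log2 scale. These features were chosen for their ratio in A78:3 over G88:5, which is part of the difference.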

How the results depend on the processing

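The count of 290 called features was 152 after normexp background correction, 0 with median centring only (396 at an unadjusted p under 0.05), 10 on the arrays with A78:3 in Cy3 alone and 157 with the 4 arrays as independent and a dye term added. It was 104 with a spread shared with the other pairings, 102 with trend and robust estimation, 117 with trend alone (added with the data in view), and 0 in a plain t-test with 1 degree of freedom (247 at an unadjusted p under 0.05). Leaving out single arrays gave 1 to 264. In single-channel values with the replicate block it was 290, but that fit holds the same line ratios as the main fit and is no separate check. In single-channel values without the block it was 0 (53 at an unadjusted p under 0.05). There the replicate differences of both lines had an r of 0.924 across features, and the lines share slides. A fit with the replicate as a random block could not be made, since no finite correlation was estimated. The count of 39 features beyond 0.5 in both replicates was 64 after normexp and 101 on the arrays with A78:3 in Cy5 alone. It was 30 to 56 with single arrays left out. With a replicate left out, only the remaining one had to pass 0.5, which 72 features did without replicate 1 and 105 without replicate 2. The count of 40 for the difference from the other pairings was 0 to 245 with single replicates left out, 0 against A78:4 over 95:88:22 alone and 75 against A78:5 over G88:9 alone. The count of 209 features with a dye effect was 0 with the 4 arrays as independent. Over 26 alternatives the named features had log2 ratios of -2.67 to -1.31 for F2574_2686, -1.56 to -1.07 for F2538_2650, 0.64 to 1.10 for F1400_1512 and 0.55 to 0.86 for F67_179. Their sign is no check, since they were chosen for 1 sign on all 4 arrays, which fixes it in subsets of arrays, and the alternative error models leave the mean as it is. The r of 0.672 between replicates ranged from 0.309 to 0.703 over 16 alternatives. The causes were not tested.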
